A study of Mus musculus with 12 samples.

Results

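The leading edge (LE) of a healing wound was compared with the proliferative hub behind it in tail epidermis 4 days (D4) after wounding. Of the 12 arrays of the series, the 4 compared were the 2 labelled as basal cells of the LE at D4 and the 2 labelled as basal cells of the proliferative hub at D4, chosen by their titles. Both groups came from unmanipulated CD1 mice with a wound of 3 mm in the tail skin, and they differed in the ring of skin taken. The LE was the tissue removed with a punch of 4 mm around the wound, and the hub was the ring removed next with a punch of 6 mm. The regions may thus share mice, but the labels do not say which arrays do, and the main fit took the arrays as unpaired. Control arrays at D4 held skin taken away from the wound, and the other 6 arrays held the same 3 regions at 7 days (D7). Skin of 5 mice was pooled for a sample, 300 basal cells (α6-integrin-positive, CD34-negative) were sorted from it, and their amplified cDNA was hybridized to 1-colour Affymetrix mouse arrays. The regions were set by the diameter of the punch and not by a marker, so a sample can hold cells of the neighbouring zone. By the labels the 2 arrays of each group are biological replicates, but these do not say whether they came from separate pools, so each p-value measures the spread between these arrays, which may be technical. The values are log2 intensities made by the authors with RMA, and each of 17097 genes was read from 1 probe set. Calls, higher or lower, were made with limma, fitted on all 12 arrays, at an adjusted p (Benjamini-Hochberg) under 0.05.

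During re-epithelialization the keratinocytes at the wound front flatten, loosen their attachment to the basement membrane and move over the wound bed, while keratinocytes further back divide and supply cells. Movement of this kind is known to draw on proteases that cut the provisional matrix, on a newly laid matrix of fibronectin and laminin, on integrins that grip it, and on actin and myosin that pull on those grips. Ligands of the epidermal growth factor (EGF) receptor and activin are known signals of wounded epidermis.

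The 4 arrays were alike in overall intensity, with medians of 5.40 to 5.47, and the 2 arrays of a group correlated over probe sets with r of 0.989 (LE) and 0.991 (hub). Probe sets for nonspecific control sequences had medians of 4.02 to 4.11 on these arrays, so a gene read between 4 and 5 lies near background, and a difference from such a level may be larger than the value given. The brightest of these probe sets read 6.82 to 7.31, so a level under these values may also hold nonspecific signal. The Affymetrix actin control, read at its 3′ end minus its 5′ end, was -0.113 and -0.193 on the LE arrays, -0.25 and -0.31 on the hub arrays and -0.348 and -0.351 on the control arrays, and the part of this RNA measure in the differences below was not tested. The same measure for GAPDH was -0.145 and -0.13 in the LE against -0.129 and -0.106 in the hub. The targets of the sort were read as labelled. Itga6, which encodes α6-integrin, was 11.72 and 11.66 in the LE against 11.39 and 11.27 in the hub, a difference of 0.36 (SE 0.11) that was not called (adjusted p = 0.119 in limma). Cd34 was near background in both regions, from 4.28 to 4.94. Krt5, the keratin of basal cells, was 12.63 and 12.60 in the LE against 12.61 and 12.63 in the hub, and its partner Krt14 was 12.55 and 12.56 against 12.51 and 12.58 (both named after their values were seen).

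In the LE at D4, 446 genes were higher than in the hub (2.61% of all genes tested) and 367 were lower (2.15%). The called differences had a median of 0.96 on the log2 scale among the higher genes and -0.89 among the lower ones, and the smallest called were 0.385 and -0.395. More than a 4-fold difference was seen for 43 of the higher and 20 of the lower genes. The fold rule of the study's methods asks for more than 2-fold in each replicate but does not say which arrays are set against each other. With LE and hub arrays of the same number compared, a choice made here, 185 genes were higher (1.08%) and 120 lower (0.702%). Of these, 158 and 101 were also called by limma. Both LE arrays lay above both hub arrays for 25.2% of all genes and below both for 18.5%, the median difference over all genes was 0.03, and 56.3% of all genes had a positive difference. Counts in the gene lists below stand against 2.61% (higher), 2.15% (lower) and 56.3% (positive) of all genes. Which array was in the fit mattered. Without proliferative hub D4 replicate 2 limma called 161 genes higher and 161 lower, without leading edge D4 replicate 1 it called 183 and 181, and without proliferative hub D4 replicate 1 it called 283 and 260. In these 3 fits 155, 154 and 240 of the 446 higher genes were called again. Among the 446, hub replicate 1 read above hub replicate 2 for 304 genes (68.2%), against 53.3% of all genes, and among the 367 lower genes for 126 (34.3%). For named genes whose call was lost in any of the 12 fits made without 1 array, the number of such fits is given.

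Several of the largest differences were those of genes that were dim in the hub and bright in the LE. Arg1, the arginase that splits arginine into ornithine and urea, was 10.29 and 9.48 in the LE, 5.51 and 5.47 in the hub, and 5.74 and 5.08 in control. The regions did not overlap, and the LE was 21.0-fold above the hub (log2 difference 4.39, SE 0.34, adjusted p = 0.000203). Tmem45b, a transmembrane protein, was 8.87 and 8.34 in the LE against 5.16 and 4.79 in the hub (3.63, SE 0.25, adjusted p = 0.000149). Gjb6, the gap junction protein connexin 30, was 8.60 and 8.45 against 5.18 and 5.29 (3.29, SE 0.16, adjusted p = 1.51e-05). Timp1, a secreted inhibitor of metalloproteinases, was 8.97 and 8.81 against 5.58 and 5.70 (3.26, SE 0.51, adjusted p = 0.00665). Tmigd1, an immunoglobulin-domain adhesion protein, was 8.69 and 8.71 against 6.08 and 5.16 (3.08, SE 0.23, adjusted p = 0.000194). Basp1, a membrane-bound protein of growing neurites that is counted with the cytoskeleton here, was 8.69 and 9.10 against 5.22 and 5.47. For the other 5 genes the difference between hub and control was not called, and on the log2 scale it was 0.08 for Arg1, -0.12 for Tmem45b, 0.59 for Gjb6, 0.72 for Timp1 and 1.17 for Tmigd1. Neu2, a cytosolic sialidase, was 9.19 and 8.55 in the LE but 6.47 and 4.60 on the hub arrays (3.33, SE 0.52, adjusted p = 0.00639), and Mal, a membrane raft protein, was 10.88 and 8.16 in the LE against 7.03 and 6.04 (2.99, SE 0.69, adjusted p = 0.0394). The calls of Timp1 and Neu2 were each lost in 1 of the 12 fits (adjusted p = 0.0501 and 0.0546, without leading edge D4 replicate 1), and Mal lost its call in 9 (highest adjusted p = 0.236, without proliferative hub D4 replicate 2).

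**Figure D1:**
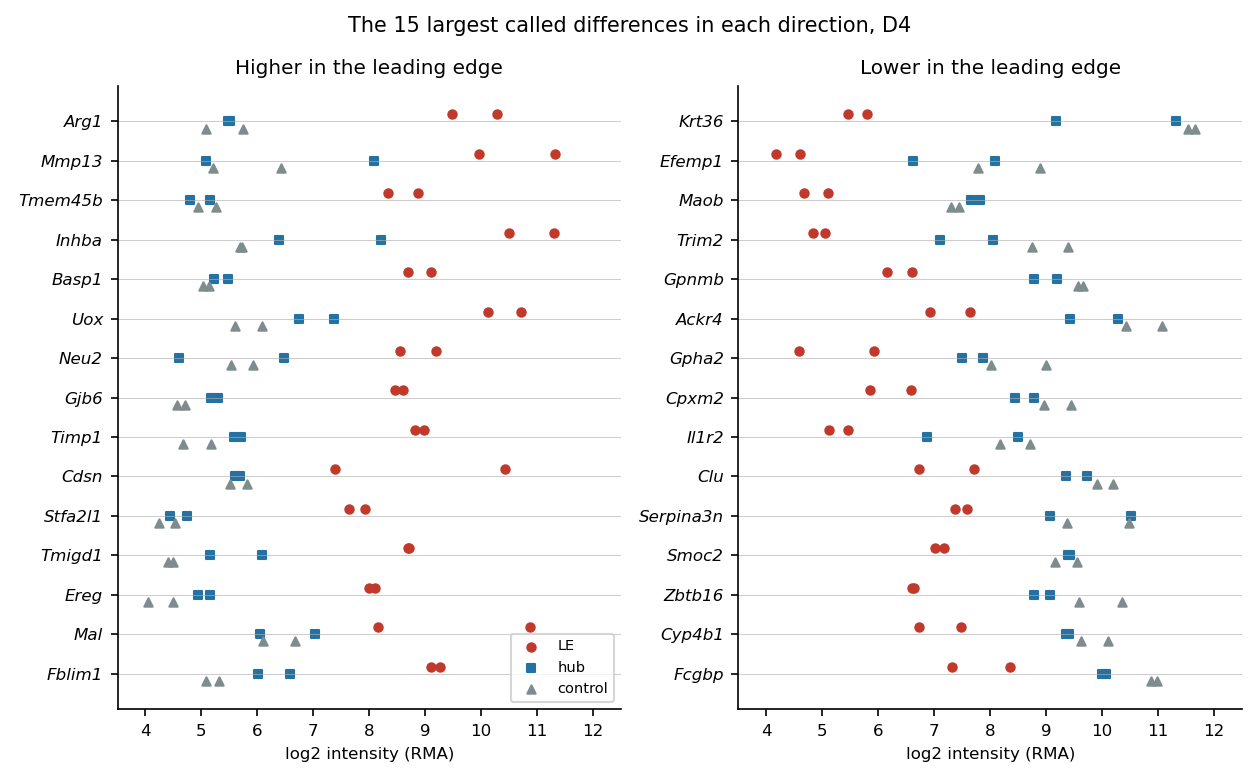
Log2 intensity on each of the 6 arrays of D4 (LE circles, hub squares, control triangles) for the 15 genes with the largest called difference in each direction that also passed the fold rule. The genes were chosen for a large difference between these arrays, so the gap between LE and hub in each row follows from that choice. The hub arrays are far from each other for Mmp13, Inhba, Neu2 and Krt36.

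Among proteases, the collagenases and a stromelysin were higher in the LE, and a gelatinase was lower. Of 17 measured matrix metalloproteinases 3 were called higher and 1 lower, with a median difference of 0.36, and 1 was called higher without proliferative hub D4 replicate 2. Their genes Mmp13 and Mmp1b (collagenases) and Mmp3 (stromelysin 1) lie close together on mouse chromosome 9. Mmp13 was 11.31 and 9.96 in the LE, while the hub arrays read 8.08 and 5.08 and control 5.21 and 6.43 (difference 4.06, SE 0.89, adjusted p = 0.0311). Mmp1b was 7.28 and 7.07 in the LE and near background in the hub, at 4.40 and 4.51 (2.72, SE 0.22, adjusted p = 0.000216). Mmp3 was 9.82 and 9.58 against 8.19 and 8.33 (1.44, SE 0.26, adjusted p = 0.0126). Mmp9, a gelatinase, read 11.73 and 11.18 in the LE, but the hub arrays read 9.64 and 5.88, and its difference of 3.69 (SE 0.93) was not called (adjusted p = 0.0538). A second Mmp9 probe set, of lower mean intensity, differed by 4.77 (SE 0.66) and passed when each probe set was tested by itself (adjusted p = 0.0039), and Mmp9 was also called with the mean of its probe sets and with dim genes left out. Mmp2, the other gelatinase, went the opposite way on arrays that agreed closely, 7.71 and 7.74 in the LE against 9.63 and 9.64 in the hub (-1.91, SE 0.13, adjusted p = 0.000149). The call of Mmp13 was lost in 6 of the 12 fits (highest adjusted p = 0.181) and that of Mmp3 in 3 (0.0859), each without leading edge D4 replicate 1. Of 4 measured metalloproteinase inhibitors Timp1 was higher, and Timp3 was -1.02 (SE 0.29, adjusted p = 0.0867), with its 4 probe sets between -1.425 and -1.002 and 1 of them past the threshold (adjusted p = 0.0495). Of 14 genes of plasminogen activation 2 were higher, the urokinase receptor Plaur (1.35, SE 0.23, adjusted p = 0.00902) and the serpin Serpinb6a (1.01, SE 0.16, adjusted p = 0.00598), each lost in 1 of the 12 fits (adjusted p = 0.0682 and 0.0528, without proliferative hub D4 replicate 2). Urokinase itself, Plau, read 10.21 and 9.52 against 9.08 and 8.72, just short of a call (0.96, SE 0.24, adjusted p = 0.0502). Its second probe set, of lower mean intensity, differed by 1.81 (SE 0.24, adjusted p = 0.0031 with each probe set tested by itself). Plau was also called under 7 of the alternatives that left out no single array, median centring among them. These include a fit on the D4 arrays alone with a term for replicate number, chosen after seeing the data.

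The 3 metalloproteinase genes called higher lie near each other, and the sequence before their starts is shown for that reason. They were picked because they were called higher, so their shared direction is not a finding. No sequence is shown for the 13 measured metalloproteinases that were not called. AP-1, the dimer of FOS and JUN proteins, is known to bind the heptamer TGANTCA, also in promoters of collagenase and stromelysin genes. The 250 bases before each gene's start (RefSeq, build GRCm38.p6) are given 5′ to 3′ on the strand of the gene, with matches to the heptamer, searched on both strands, in capitals. Mmp13 is on the plus strand (chr9:7272264-7272513), Mmp1b on the minus strand (chr9:7388027-7388276) and Mmp3 on the plus strand (chr9:7445572-7445821).
Mmp13: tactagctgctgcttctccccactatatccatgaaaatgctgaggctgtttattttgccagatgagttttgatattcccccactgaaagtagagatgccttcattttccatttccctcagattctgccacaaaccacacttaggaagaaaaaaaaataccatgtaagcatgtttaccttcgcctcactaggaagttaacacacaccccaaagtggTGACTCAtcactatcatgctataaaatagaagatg
Mmp1b: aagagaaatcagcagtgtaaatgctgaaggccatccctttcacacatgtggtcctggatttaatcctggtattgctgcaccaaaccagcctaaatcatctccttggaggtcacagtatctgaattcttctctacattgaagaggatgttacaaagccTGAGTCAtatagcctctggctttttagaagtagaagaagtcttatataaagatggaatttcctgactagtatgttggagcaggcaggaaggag
Mmp3: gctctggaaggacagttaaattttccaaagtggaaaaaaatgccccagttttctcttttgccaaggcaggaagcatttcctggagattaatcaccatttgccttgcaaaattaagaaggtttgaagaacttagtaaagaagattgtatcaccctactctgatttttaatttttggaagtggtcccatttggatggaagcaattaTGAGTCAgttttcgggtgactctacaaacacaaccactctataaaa
Each window held 1 match, which began 35, 93 and 46 bases before the start in Mmp13, Mmp1b and Mmp3. The motif was present in 6.75% of the 32851 promoter windows of this length. Over the genes tested that had a window, it was present for 6.84% of all 13605, for 37 of 363 genes called higher (10.2%) and for 24 of 294 called lower (8.16%), counts that are given as a description and were not tested. The motif was chosen after the called genes were known. Of 13 measured AP-1 family members themselves, none was called higher and 1 was lower, Atf3 (-0.41, SE 0.09, adjusted p = 0.0326), a call lost in 8 of the 12 fits (highest adjusted p = 0.232, without proliferative hub D4 replicate 2).

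Matrix and adhesion genes moved in both directions. Of 35 measured basement membrane and matrix genes 3 were higher and 4 lower, with a median of 0.06. Fibronectin (Fn1), the main protein of the provisional matrix, was 6.46 and 6.43 in the LE against 4.71 and 4.70 in the hub, beside control at 4.67 and 4.59 (difference 1.74, SE 0.18, adjusted p = 0.000802). Its LE level was under the brightest nonspecific probe set of those arrays (6.82 and 6.89). The laminin-332 chains Lama3 and Lamb3 were higher too, Lama3 from 11.12 and 11.11 in the hub to 11.998 and 11.89 in the LE (0.83, SE 0.11, adjusted p = 0.00325) and Lamb3 from 11.55 and 11.46 to 12.30 and 12.12 (0.70, SE 0.12, adjusted p = 0.0103). The lower members were the fibulin Efemp1, the type IV collagen chain Col4a6 (5.71 and 5.68 against 7.07 and 8.27), thrombospondin 2 (Thbs2) and nephronectin (Npnt, named after its value was seen). Col4a6 differed by -1.98 (SE 0.38, adjusted p = 0.0164) and Thbs2 by -1.71 (SE 0.28, adjusted p = 0.00767). Of 14 integrin subunits 2 were higher. Itga2, a subunit of the collagen receptor, was 9.49 and 8.94 in the LE against 7.36 and 7.61 in the hub (1.73, SE 0.30, adjusted p = 0.0111). Itgb1, its partner, differed by 0.50 (SE 0.12, adjusted p = 0.049). Itga5, a subunit of the fibronectin receptor, read 8.73 and 8.37 against 7.72 and 6.77, which was not called (1.30, SE 0.34, adjusted p = 0.0628). The calls of Lamb3, Col4a6 and Itga2 were lost in 2, 3 and 2 of the 12 fits (highest adjusted p = 0.0853, 0.0909 and 0.0838, without proliferative hub D4 replicate 2 for Lamb3 and Col4a6 and without leading edge D4 replicate 1 for Itga2), and that of Itgb1 in 10 (0.325, without proliferative hub D4 replicate 2).

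Junction genes changed in part. Of 14 desmosome components 2 were higher, of 8 gap junction proteins 1, and of 27 genes of adherens and tight junctions and protocadherins 4 were higher and 2 lower. Besides Gjb6 these were corneodesmosin (Cdsn), the desmosomal cadherin Dsg1b (0.81, SE 0.15, adjusted p = 0.0152), protocadherin 7 (Pcdh7; 1.69, SE 0.31, adjusted p = 0.014), the adhesion protein Nectin4 (0.92, SE 0.17, adjusted p = 0.0143), the tight junction scaffold Tjp1 (0.89, SE 0.19, adjusted p = 0.026) and α-catenin (Ctnna1, named after its value was seen). Cdsn was 10.43 and 7.38 on the LE arrays and 5.61 and 5.69 on the hub arrays, so the LE arrays lay far apart (3.25, SE 0.71, adjusted p = 0.0306). T-cadherin (Cdh13) was lower, at 8.78 and 8.65 against 9.81 and 10.14 (-1.26, SE 0.14, adjusted p = 0.00116), as was the tight junction protein Cldn1 (-0.68, SE 0.12, adjusted p = 0.0134). Connexin 26 (Gjb2), whose levels were 12.14 and 12.13 in the LE against 11.39 and 11.41 in the hub, was not called (0.73, SE 0.27, adjusted p = 0.187). The calls of Cdsn, Dsg1b, Pcdh7, Nectin4, Tjp1 and Cldn1 were lost in 8, 2, 3, 2, 3 and 2 of the 12 fits (highest adjusted p = 0.137, 0.103, 0.0972, 0.0903, 0.187 and 0.0812). Without leading edge D4 replicate 1 none of the 4 higher members of the adherens and tight junction list was called.

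Of 45 measured genes of the actin and myosin cytoskeleton, 14 were called higher in the LE and 0 lower (31.1% against 2.61% of all genes), 40 had a positive difference (56.3% of all genes had one) and the median was 0.36. Caldesmon (Cald1), which binds actin and tropomyosin, was 9.84 and 9.98 in the LE, 7.22 and 7.26 in the hub and 5.06 and 5.16 in control (2.67, SE 0.19, adjusted p = 0.000194). Marcksl1, a membrane protein that links to actin, was 11.35 and 10.95 against 9.05 and 8.75 (2.25, SE 0.15, adjusted p = 0.000149). Pdlim7, an adaptor of actin stress fibres, was 10.44 and 9.85 against 8.70 and 8.64 (1.47, SE 0.19, adjusted p = 0.00264). For these 3 genes the hub lay above control as well, by 2.13, 1.11 and 1.41 on the log2 scale, and limma called each of these hub differences. Fblim1 (migfilin), an adaptor of cell-matrix adhesions, was 9.26 and 9.10 against 6.58 and 6.02 (2.88, SE 0.22, adjusted p = 0.000203). The heavy chain of non-muscle myosin, Myh9, was 10.51 and 10.32 against 9.90 and 9.73, a smaller difference of 0.60 (SE 0.13, adjusted p = 0.0273) that was lost in 3 of the 12 fits (highest adjusted p = 0.194, without proliferative hub D4 replicate 2). Smooth muscle actin (Acta2) was 8.67 and 9.30 against 6.96 and 6.96 (2.03, SE 0.32, adjusted p = 0.00658). A second probe set of Acta2 gave 0.08 (adjusted p = 0.93), and probe sets of Cald1 ran from 0.47 to 2.78. Without proliferative hub D4 replicate 2 limma called 5 of the 45 genes.

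Microtubule and guidance genes followed in smaller numbers. Of 23 measured microtubule genes 5 were higher and 0 lower, and of 42 guidance genes 4 were higher and 3 lower. The β-tubulin Tubb3 was 10.49 and 9.28 in the LE, 7.75 and 6.72 in the hub and 5.53 and 5.02 in control (2.65, SE 0.43, adjusted p = 0.00804). Tubb2a was 10.81 and 10.64 against 8.99 and 9.13 (1.66, SE 0.16, adjusted p = 0.000545). The guidance molecules Flrt2 and Flrt3, leucine-rich membrane proteins, were both higher, Flrt2 with a difference of 1.94 (SE 0.24, adjusted p = 0.00201) and Flrt3 with 1.20 (SE 0.10, adjusted p = 0.00029), as was the ligand ephrin B1, Efnb1, with 0.94 (SE 0.14, adjusted p = 0.00571). The lower members were receptors, the netrin receptor Unc5b (-1.27, SE 0.19, adjusted p = 0.00493), Ephb6 (-1.11, SE 0.14, adjusted p = 0.00246) and the plexin Plxnb1 (-0.52, SE 0.12, adjusted p = 0.0331). The calls of Tubb3, Efnb1 and Plxnb1 were lost in 2, 1 and 6 of the 12 fits (highest adjusted p = 0.0622, 0.0522 and 0.2, without proliferative hub D4 replicate 2). Without leading edge D4 replicate 1 limma called 1 of the 5 microtubule genes.

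All 13 measured genes of the list for hyaluronan, a matrix polysaccharide of wounded skin, had a positive difference, against 56.3% of all genes. Of these 5 were called higher (38.5% against 2.61% of all genes), with a median of 0.35. Besides enzymes and receptors of hyaluronan, the list holds the membrane linkers Ezr, Msn and Rdx. The synthase Has2 was 9.65 and 9.62 in the LE against 8.22 and 7.32 in the hub (1.87, SE 0.41, adjusted p = 0.0316), and Has3 was 10.07 and 9.95 against 8.54 and 8.26 (1.60, SE 0.29, adjusted p = 0.0135). Podoplanin (Pdpn), a membrane mucin of migrating epithelia, was 11.11 and 10.88 in the LE, 9.43 and 9.26 in the hub and 7.96 and 7.75 in control (1.65, SE 0.23, adjusted p = 0.00344). The hyaluronidase Cemip2 was higher by 1.03 (SE 0.18, adjusted p = 0.0103). The receptor Cd44, named after its value was seen, was 0.20 (SE 0.13, adjusted p = 0.535). The calls of Has2, Has3 and Cemip2 were lost in 3, 2 and 2 of the 12 fits (highest adjusted p = 0.215, 0.101 and 0.086, without proliferative hub D4 replicate 2), and 1 of the 5 calls was left without leading edge D4 replicate 1.

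**Figure D2:**
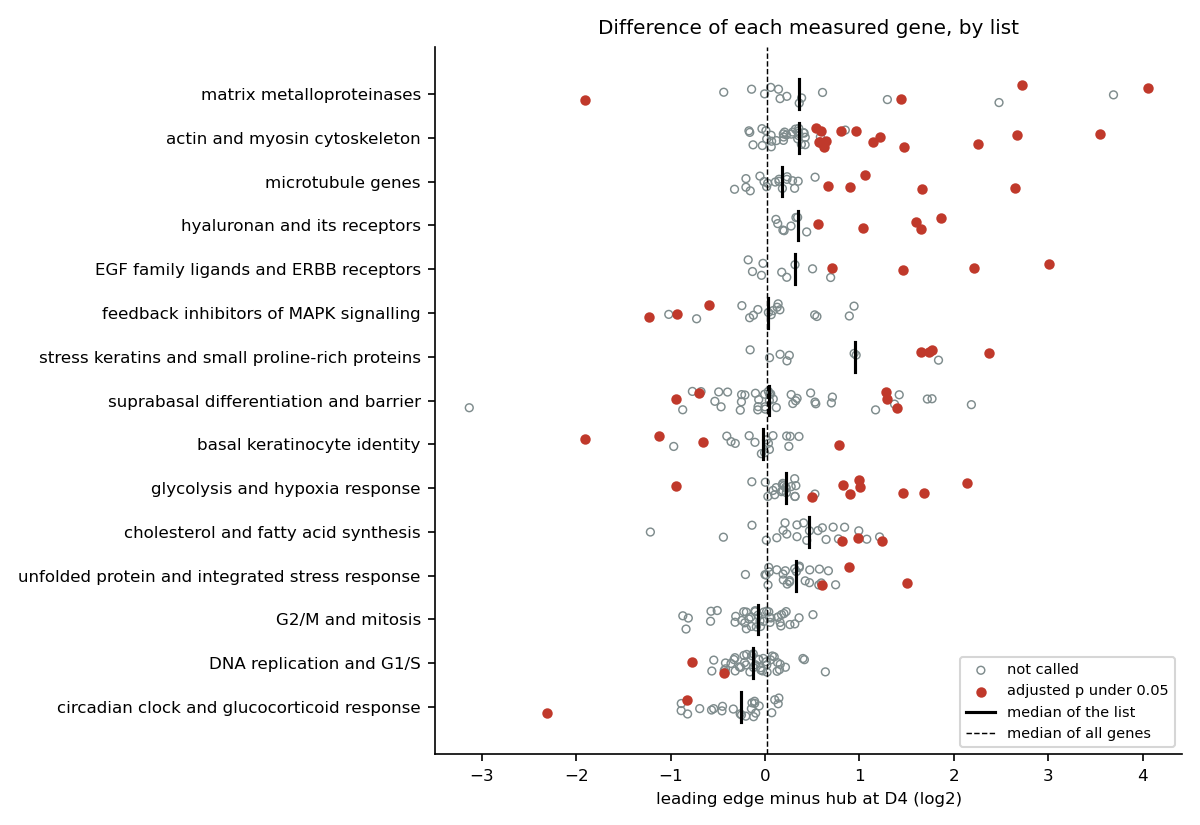
Difference between the LE and the hub at D4 (log2) for each measured gene of 15 lists, with genes past an adjusted p of 0.05 in limma filled, the median of each list as a bar and the median of all genes as a dashed line. Called genes of the cytoskeleton, hyaluronan and EGF lists lie to the right of the line, and G2/M genes are centred at -0.07 with none called.

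Among growth factor genes, 4 of 9 measured ligands of the EGF receptor family were higher in the LE and none was lower. Of the 4 receptors limma called 0 (differences of -0.18 to 0.23), and ligands were not tested against receptors. The median over the 13 genes was 0.32. Epiregulin (Ereg) was 8.10 and 8.0 in the LE against 5.15 and 4.94 in the hub (3.01, SE 0.24, adjusted p = 0.000216). Transforming growth factor α (Tgfa) was 10.18 and 9.59 against 8.10 and 7.23 (2.22, SE 0.31, adjusted p = 0.00408), and neuregulin 1 (Nrg1) was 8.81 and 8.56 against 7.39 and 7.04 (1.47, SE 0.30, adjusted p = 0.0237). Epigen (Epgn) was 10.81 and 10.78 against 10.32 and 9.85 (0.71, SE 0.16, adjusted p = 0.0312). Calls of Nrg1 and Epgn were lost in 4 and 7 of the 12 fits (highest adjusted p = 0.158 and 0.203, without proliferative hub D4 replicate 2), and 2 of the 4 calls were left without leading edge D4 replicate 1. Of 19 feedback inhibitors of MAPK signalling none was higher and 3 were lower, among them Errfi1, an inhibitor of the EGF receptor, at 9.58 and 10.04 in the LE against 11.23 and 10.85 (-1.23, SE 0.17, adjusted p = 0.00382). The phosphatase Dusp8 (-0.93, SE 0.19, adjusted p = 0.022) and Spred2 (-0.59, SE 0.14, adjusted p = 0.043) were the others, with the calls lost in 2 and 11 of the 12 fits (highest adjusted p = 0.162 and 0.29, without proliferative hub D4 replicate 2).

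Other signalling lists held calls in both directions. Of 38 genes of activin, TGF-β and BMP signalling 3 were higher (7.9%) and 5 lower (13.2%), against 2.61% and 2.15% of all genes. Activin subunit Inhba was 11.29 and 10.49 in the LE, and its hub arrays were spread, at 8.21 and 6.38 (call lost in 1 of the 12 fits, adjusted p = 0.0666, without leading edge D4 replicate 1). Tgfb1 was 9.72 and 9.37 against 8.54 and 8.35 (1.10, SE 0.16, adjusted p = 0.00511). Id3, a target of BMP signals, was 7.57 and 7.89 against 9.03 and 9.34 (-1.46, SE 0.16, adjusted p = 0.00126), and the co-receptor Tgfbr3 was lower by a log2 difference of -1.31 (SE 0.24, adjusted p = 0.0141). Of 47 Wnt genes 2 were higher (4.3%) and 4 lower (8.5%). Wnt5a was 7.64 and 7.80 in the LE against 6.01 and 5.24 in the hub (2.10, SE 0.26, adjusted p = 0.00199). The antagonist Sostdc1 was 8.69 and 9.09 against 10.14 and 10.76 (-1.56, SE 0.19, adjusted p = 0.0019), and the R-spondin receptor Lgr4 was 5.58 and 6.76 against 7.70 and 7.55 (-1.46, SE 0.29, adjusted p = 0.0194). The Notch list had 1 higher member, Nrarp (0.55), and 1 lower, Lfng (-0.87), of 19. Of 21 genes of the YAP and TAZ list 2 were higher and 2 lower, with Tead4, a DNA-binding partner of YAP, at 9.03 and 8.42 against 7.30 and 6.76 (1.70, SE 0.22, adjusted p = 0.00249) and its target Ccn1 at 9.83 and 9.45 against 10.70 and 10.54 (-0.98, SE 0.20, adjusted p = 0.0205). The calls of Tgfbr3, Lgr4, Nrarp, Lfng and Ccn1 were lost in 2, 2, 3, 2 and 3 of the 12 fits (highest adjusted p = 0.101, 0.0885, 0.183, 0.0692 and 0.101). No more than 1 of the 4 lower Wnt genes was called without proliferative hub D4 replicate 2, and 1 of the 3 higher genes of the activin list without leading edge D4 replicate 1.

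Fgf18, a fibroblast growth factor, was 7.72 and 7.80 against 5.67 and 5.87 (1.99, SE 0.17, adjusted p = 0.00029). Of 27 ETS and Krüppel-like transcription factors 2 were higher and 3 lower, with Elk3 at 1.30 (SE 0.24, adjusted p = 0.0138), Etv3 at -1.34 (SE 0.22, adjusted p = 0.00767) and the glucocorticoid-induced Klf9 at -1.30 (SE 0.17, adjusted p = 0.00266). Of 20 regulators of epithelial to mesenchymal transition 1 was called, Snai3 (1.03, SE 0.19, adjusted p = 0.0148). Vimentin (Vim), named after its values were seen, was 7.05 and 9.28 in the LE against 7.50 and 8.42 in the hub, so that the arrays of the regions overlapped. The calls of Elk3, Etv3 and Snai3 were lost in 4, 1 and 3 of the 12 fits (highest adjusted p = 0.0901, 0.068 and 0.104, without proliferative hub D4 replicate 2).

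Genes of keratinocyte identity and differentiation showed a mixed picture. Of 12 stress keratins and small proline-rich proteins, 4 were higher (33.3% against 2.61% of all genes) and 0 lower, with a median of 0.955. All 4 were proline-rich proteins of the cornified envelope. Sprr2d was 11.47 and 11.16 in the LE against 9.57 and 9.57 in the hub (1.74, SE 0.16, adjusted p = 0.000423), and Sprr2f was 8.07 and 6.76 against 5.58 and 4.50 (2.38, SE 0.41, adjusted p = 0.0103). The stress keratin Krt6a, named after its value was seen, was 0.26 (SE 0.12, adjusted p = 0.339). Probes for the Sprr2 genes may read more than 1 of these closely related copies. Without leading edge D4 replicate 1 the count of 4 became 1, and it became 7 when leading edge D4 replicate 2 was left out. Of 45 suprabasal and barrier genes 3 were higher and 2 lower, the transglutaminase Tgm1 (10.62 and 9.59 against 8.74 and 8.68, 1.40, SE 0.27, adjusted p = 0.018), the ceramide synthase Cers3 (1.29, SE 0.24, adjusted p = 0.0158) and the protease inhibitor Spink5 (1.28, SE 0.29, adjusted p = 0.0347) against Them5 (-0.94, SE 0.22, adjusted p = 0.0425) and Calm4 (-0.70, SE 0.12, adjusted p = 0.00957). Without leading edge D4 replicate 2, the array with the lower Cdsn and Tgm1, 12 of the 45 were called higher, and without leading edge D4 replicate 1 limma called 1. The suprabasal keratin Krt1 was 11.19 and 11.57 in the LE against 11.83 and 12.28 (-0.68, SE 0.17, adjusted p = 0.0536, named after its value was seen). Of 20 genes of basal identity 1 was higher and 3 lower. Keratin 15 (Krt15) was 7.26 and 8.31 in the LE, 9.13 and 10.25 in the hub and 10.01 and 10.52 in control (-1.90, SE 0.39, adjusted p = 0.023), and periostin (Postn) was 9.43 and 9.45 against 10.75 and 10.37 (-1.12, SE 0.13, adjusted p = 0.00156). Dystonin (Dst), a plakin of the hemidesmosome, was 10.64 and 10.63 against 11.19 and 11.38 (-0.65, SE 0.11, adjusted p = 0.0079). Calls of Sprr2f, Krt15 and Dst were lost in 2, 2 and 1 of the 12 fits, those of Tgm1, Cers3, Spink5, Them5 and Calm4 in 2, 2, 7, 9 and 2.

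The genes lowest in the LE relative to the hub were also above the LE in control skin. Krt36, a hair-type keratin, fell most, from 9.18 and 11.32 in the hub to 5.79 and 5.47 in the LE, with control at 11.65 and 11.54 (-4.62, SE 0.97, adjusted p = 0.0255, lost in 3 of the 12 fits, highest adjusted p = 0.179 without proliferative hub D4 replicate 2). Trim2, a ubiquitin ligase, was 4.83 and 5.05 in the LE, 7.11 and 8.06 in the hub and 8.75 and 9.39 in control (-2.64, SE 0.30, adjusted p = 0.00131). Gpnmb, a membrane glycoprotein, was 6.16 and 6.61 against 8.79 and 9.19 (-2.61, SE 0.20, adjusted p = 0.000203). Ackr4, a scavenging chemokine receptor, was 6.93 and 7.65 against 9.42 and 10.28 (-2.56, SE 0.32, adjusted p = 0.0019). Smoc2, a calcium-binding matrix protein, was 7.0 and 7.18 in the LE against 9.43 and 9.38 in the hub, the hub minus control being 0.05 (-2.32, SE 0.19, adjusted p = 0.000216). Clusterin (Clu), a secreted chaperone, was 6.73 and 7.72 against 9.36 and 9.72 (-2.32, SE 0.27, adjusted p = 0.00128), and the decoy receptor for interleukin 1, Il1r2, was 5.11 and 5.46 against 6.86 and 8.49 (-2.39, SE 0.41, adjusted p = 0.0101). Zbtb16, a glucocorticoid-responsive repressor, was 6.63 and 6.61 against 8.78 and 9.07 (-2.31, SE 0.21, adjusted p = 0.000423). The fatty acid hydroxylase Cyp4b1 was 6.73 and 7.49 against 9.35 and 9.41 (-2.28, SE 0.25, adjusted p = 0.0012). Of the other genes among the 15 lowest, Maob, a monoamine oxidase, was 4.67 and 5.10 against 7.82 and 7.66, and Efemp1 was 4.17 and 4.60 against 6.63 and 8.09. Gpha2, a glycoprotein hormone subunit, was 4.59 and 5.92 against 7.49 and 7.86 (-2.42, SE 0.45, adjusted p = 0.0144), and Cpxm2, a carboxypeptidase-like protein, was 5.85 and 6.59 against 8.44 and 8.79 (-2.40, SE 0.26, adjusted p = 0.000999). Serpina3n, a serine protease inhibitor, was 7.58 and 7.37 against 10.52 and 9.06 (-2.32, SE 0.47, adjusted p = 0.0218), and Fcgbp, a mucin-like protein, was 8.36 and 7.31 against 10.08 and 9.999. The LE arrays lay below the hub arrays for each of these 15 genes, which their choice by call and fold rule favoured. Besides Krt36 the calls of Gpha2 and Serpina3n were lost in 2 and 3 of the 12 fits. That of Il1r2 was lost in 1, without leading edge D4 replicate 1.

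**Figure D3:**
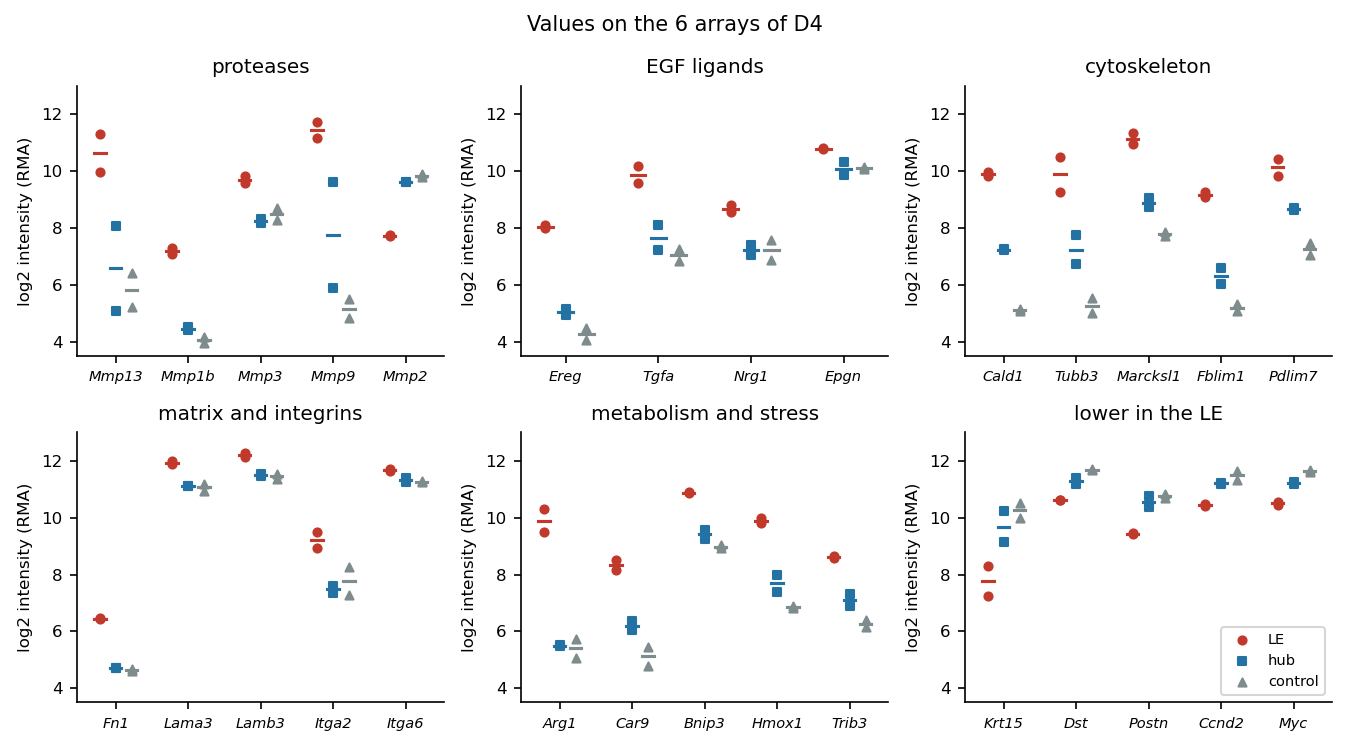
Log2 intensity of 29 named genes, grouped by role, on the 6 arrays of D4 (points are arrays, bars are means of 2). Fn1 and Arg1 are raised in the LE alone, Fn1 to a modest level, with hub and control side by side. Cald1 and Tubb3 step down from LE to hub to control, and Mmp9 shows hub arrays at 9.64 and 5.88.

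No gene of the mitosis list was called between the regions. Of 41 measured genes of G2/M and mitosis limma called 0 (1 at an unadjusted p under 0.05), 16 had a positive difference, with a median of -0.07 and a range of -0.87 to 0.51. Against the same control arrays the medians were 0.82 in the LE and 0.94 in the hub, but the control arrays differed. The mean over the 41 genes was 8.30 and 8.35 on the LE arrays, 8.43 and 8.42 on the hub arrays, 7.05 on control replicate 1 and 8.005 on control replicate 2, so both regions lay further above control replicate 1 than above control replicate 2. For Mki67, the proliferation antigen named after its values were seen, the LE arrays were 9.80 and 10.23 and the hub arrays 9.99 and 10.38. Of 43 genes of DNA replication and the G1/S transition none was higher and 2 were lower, with a median of -0.12, cyclin D2 (Ccnd2), at 10.41 and 10.48 against 11.20 and 11.24 (-0.78, SE 0.15, adjusted p = 0.0164), and the replication factor Gins2 (-0.44, SE 0.10, adjusted p = 0.0428). Of 30 cell cycle inhibitors and repressors 2 were higher and 4 lower. E2f7, a repressor of the E2F family, was 7.38 and 7.66 in the LE against 5.79 and 5.32 in the hub (1.96, SE 0.23, adjusted p = 0.00164), and the stress sensor Sesn2 was higher by 0.89 (SE 0.14, adjusted p = 0.00767). The p53-induced Trp53inp1 was 8.24 and 8.23 against 9.75 and 9.80 (-1.54, SE 0.16, adjusted p = 0.000842), and the growth arrest protein Gas1 was 8.84 and 8.93 against 9.99 and 10.21 (-1.21, SE 0.12, adjusted p = 0.000535). The proto-oncogene Myc, the 1 called gene of 31 in ribosome biogenesis, was 10.46 and 10.55 in the LE, 11.18 and 11.25 in the hub and 11.69 and 11.63 in control (-0.71, SE 0.10, adjusted p = 0.00311). The calls of Ccnd2, Gins2 and Sesn2 were lost in 3, 10 and 2 of the 12 fits (highest adjusted p = 0.107, 0.248 and 0.0647, without proliferative hub D4 replicate 2). In bulk samples of sorted cells, fewer cells of a kind and less RNA per cell cannot be told apart.

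Of 29 measured genes of glycolysis and the hypoxia response, 8 were called higher (27.6% against 2.61% of all genes) and 1 lower. A positive difference was seen for 27 of the 29, against 56.3% of all genes, and the median was 0.23. Without leading edge D4 replicate 1 limma called 5 of them higher. Carbonic anhydrase 9 (Car9), a hypoxia-induced enzyme, was 8.52 and 8.16 in the LE against 6.36 and 6.04 in the hub (2.14, SE 0.26, adjusted p = 0.0019). The lactate exporter Slc16a3 was 10.75 and 10.30 against 9.13 and 8.57 (1.68, SE 0.23, adjusted p = 0.00325), and the hypoxia-induced mitochondrial protein Bnip3 was 10.89 and 10.87 against 9.58 and 9.26 (1.46, SE 0.15, adjusted p = 0.000687). Pfkfb3, which makes an activator of glycolysis, was higher by 1.01 (SE 0.22, adjusted p = 0.0286, lost in 2 of the 12 fits). The lower member was the muscle type of phosphofructokinase, Pfkm (-0.95, SE 0.19, adjusted p = 0.0194, also lost in 2). Of 38 genes of the mitochondrial respiratory chain limma called 0 (2 at an unadjusted p under 0.05), with a median of 0.03 and all differences between -0.53 and 0.40.

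Of 25 genes of cholesterol and fatty acid synthesis, 22 had a positive difference and 3 were called higher, with a median of 0.47. These were Hsd17b7 (1.24, SE 0.23, adjusted p = 0.0157), the sterol sensor Insig1, at 9.45 and 9.46 against 8.63 and 8.30 (0.99, SE 0.14, adjusted p = 0.00328), and lanosterol synthase, Lss (0.82, SE 0.13, adjusted p = 0.00746). Without control D4 replicate 2 the count was 7, and the call of Hsd17b7 was lost in 3 of the 12 fits (highest adjusted p = 0.125, without proliferative hub D4 replicate 2). In the unfolded protein and integrated stress response list 27 of 28 genes had a positive difference, 3 were called and the median was 0.32, with 1 call without leading edge D4 replicate 1. Over all genes 56.3% had a positive difference and 2.61% were called higher, against 10.7% called higher in this list. The pseudokinase Trib3, a target of the stress factor Atf4, was 8.59 and 8.66 against 6.91 and 7.33 (1.51, SE 0.19, adjusted p = 0.00246). Of 24 NRF2 and glutathione genes 4 were higher and 2 lower, and 1 was called higher without proliferative hub D4 replicate 2. Haem oxygenase (Hmox1) was 9.98 and 9.82 in the LE against 7.40 and 8.0 in the hub (2.20, SE 0.20, adjusted p = 0.000396), whereas the glutathione transferase Gstm1 was 9.0 and 9.15 against 9.89 and 9.97 (-0.85, SE 0.11, adjusted p = 0.00204). Of 13 genes of arginine and polyamine metabolism 2 were higher, Arg1 and the argininosuccinate synthase Ass1 (0.79, SE 0.18, adjusted p = 0.0349, lost in 6 of the 12 fits). Of 25 clock and glucocorticoid-response genes none was higher and 2 were lower, Zbtb16 and the nuclear receptor Rora (-0.83, SE 0.16, adjusted p = 0.0193, lost in 3 of the 12 fits), with a median of -0.25 and 21 of 25 differences below 0. Of 17 immediate early and heat shock genes 2 were lower, among them Nr4a1, which was 8.81 and 9.16 in the LE, 10.18 and 10.35 in the hub and 11.21 and 11.14 in control (-1.28, SE 0.13, adjusted p = 0.000722).

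Cytokine genes differed in part. Of 24 genes of the interleukin 1 and interleukin 20 families 4 were higher and 3 lower, and without leading edge D4 replicate 1 limma called 1 higher. The alarmin Il33 was 9.44 and 9.73 in the LE against 8.04 and 8.49 in the hub (1.32, SE 0.21, adjusted p = 0.00767). Besides Il1r2, the receptor subunits Il20rb (-1.41, SE 0.26, adjusted p = 0.0154) and Il6st (-0.87, SE 0.17, adjusted p = 0.0182) were lower. Of 33 chemokine and related genes 1 was higher, the scavenging receptor Ackr2 (1.07, SE 0.24, adjusted p = 0.0369), and 3 were lower. Ccl27a, a chemokine of resting epidermis, was 8.10 and 8.83 in the LE, 9.88 and 10.80 in the hub and 10.98 and 11.46 in control (-1.88, SE 0.30, adjusted p = 0.00745). Of 22 antimicrobial proteins and alarmins limma called 0 (3 at an unadjusted p under 0.05), and S100a8 was 11.74 and 10.92 in the LE against 11.67 and 9.51 in the hub (0.75, SE 0.77, adjusted p = 0.777). Of 30 interferon and antigen presentation genes 2 were lower, Irf1 (-0.94, SE 0.14, adjusted p = 0.00594) and Ifi27 (-0.75, SE 0.10, adjusted p = 0.00358). The calls of Il20rb, Il6st, Ackr2 and Ccl27a were lost in 3, 2, 6 and 1 of the 12 fits (highest adjusted p = 0.0791, 0.109, 0.158 and 0.055).

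Of a list of genes that the study names for the LE, 28 were measured, of which 19 were called higher and 0 lower, with a median of 1.58. The list includes Timp3, which the study reports as reduced in the LE, so a negative difference is the study's direction for that gene. The list leaves out 9 cytoskeletal genes that the study also names (Cald1, Tubb3, Fscn1, Tpm1, Tpm2, Tubb6, Nav2, Fmnl2 and Myo5b), and all 9 were called higher, by 0.67 to 2.67. The study chose all these genes on these samples and on a second array experiment, so the count is not independent evidence of their direction. Without proliferative hub D4 replicate 2, 10 of the 28 were called higher. Besides the genes described, Gprc5a, a retinoic acid-induced membrane receptor, was 10.66 and 9.73 in the LE against 8.12 and 7.40 in the hub (2.43, SE 0.39, adjusted p = 0.00736, lost in 2 of the 12 fits). Those not called were Mmp9, Timp3, Plau, Itga5, Itga6 and Gjb2, given above, together with Procr (1.51, SE 0.63, adjusted p = 0.261), C5ar1 (-0.07, SE 0.15, adjusted p = 0.93) and Pcdhb19 (0.27, SE 0.31, adjusted p = 0.811). With a term for replicate number in the fit, which takes same-numbered arrays as paired, limma also called Mmp9, Timp3, Plau and Itga5. C5ar1 was between 4.61 and 4.90 on the 4 arrays, near background.

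Several defining markers of other cell types were near background on all 4 arrays. Over 15 lists of other cell types with 112 markers measured, 3 lists had a called member, Acta2 among pericyte and smooth muscle markers and Thy1, which is in both the fibroblast and the T cell list (8.54 and 8.62 in the LE, 9.82 and 9.47 in the hub, -1.07, SE 0.15, adjusted p = 0.0037, named after its value was seen). The fibroblast collagens Col1a1 and Col1a2 were between 4.27 and 5.61 on the 4 arrays, the T cell receptor chains Cd3e and Cd3g between 4.10 and 4.73, the macrophage marker Adgre1 between 4.50 and 4.69 and the Langerhans cell marker Cd207 between 4.33 and 4.56. H2-Aa, also on the Langerhans and dendritic list, was brighter, with a mean of 6.37 over the 12 arrays, and was not called. Over the 10 measured markers of that list the mean was 6.21 and 5.98 in the LE against 5.91 and 5.84 in the hub. Differences ran from -0.07 to 1.52 in that list and from -0.25 to 1.05 in the macrophage list, with none called, though 1 Langerhans and dendritic member passed the fold rule as higher. Some other lists were brighter. Means were 6.51 and 6.77 in the LE against 6.60 and 6.42 in the hub for erythroid markers. For neutrophil markers they were 6.95 and 6.47 against 6.67 and 6.015. Schwann cell markers gave 6.13 and 5.99 against 6.28 and 6.29. No member of these lists was called. Pdgfrb, a pericyte receptor, was 5.98 and 5.77 in the LE against 5.83 and 5.71 in the hub. Endothelial markers were read above the median of the nonspecific probe sets, with Pecam1 at 6.54 and 7.40 in the LE against 6.51 and 7.09 in the hub (0.17, SE 0.55, adjusted p = 0.956). Their mean over the 10 markers was 5.95 and 6.23 against 5.58 and 5.97, below the brightest nonspecific probe set of each array. Melanocyte markers stood apart on hub replicate 2. The mean over 8 of them was 5.19 and 5.06 in the LE, 5.33 and 7.26 in the hub and 6.64 and 5.36 in control, and limma called 0 (2 at an unadjusted p under 0.05), with a median difference of -1.19. Without proliferative hub D4 replicate 1, 4 of the 8 were called lower in the LE. Tyrp1, a melanin enzyme, was 4.42 and 4.62 in the LE, 4.83 and 9.63 in the hub and 8.48 and 4.51 in control. Gpnmb, which melanocytes also express, was likewise higher on hub replicate 2 than on hub replicate 1, by less than Tyrp1. The part of melanocyte RNA in its difference and in others was not tested.

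In the same contrast at D7, 227 genes (1.33%) were above the hub in the LE and 239 (1.4%) below it. The D4 and D7 contrasts share no arrays, but both came from 1 fit with 1 estimate of spread per gene. A gene of small spread is thus more easily called on both days, so the 2 lists of calls are not independent. Of the 446 genes higher at D4, 153 were called higher at D7 and 434 had a positive difference there, and of the 367 lower at D4, 153 were called lower and 360 had a negative difference. No gene was called in opposite directions. The shared calls make up 34.3% of the higher and 41.7% of the lower calls of D4, and 67.4% and 64.0% of those of D7. Over all genes, which are not independent replicates, the differences of the 2 days correlated with r = 0.694. Genes called at D4 had a median difference at D7 of 0.57 among those higher and -0.63 among those lower, where D4 gave 0.96 and -0.89, and the D4 genes had been selected for their size on D4 arrays.

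The test of the difference itself called 3 genes (0.0175%; 874 at an unadjusted p under 0.05), and all 3 were higher in the LE at D4 by more than at D7. Uox, urate oxidase, was 10.72 and 10.13 in the LE against 7.37 and 6.74 in the hub at D4, a difference of 3.37 (SE 0.26, adjusted p = 0.000203), and at D7 the difference was 0.05 (SE 0.26, adjusted p = 0.96). The change between days was 3.32 (adjusted p = 0.0286). Stfa2l1, of the stefin A family of cysteine protease inhibitors, was 7.92 and 7.64 against 4.45 and 4.74 at D4 (3.19, SE 0.16, adjusted p = 1.51e-05) and 0.06 at D7, a change of 3.13 (adjusted p = 0.00144). Its family holds near-identical copies, so the probe set may read more than 1 of them. Gjb6 was 3.29 at D4 and 1.11 at D7 (adjusted p = 0.00887), a change of 2.17 (adjusted p = 0.0236). Arg1 differed by 4.39 at D4 and 1.33 at D7 (SE 0.34, adjusted p = 0.0767), but this change of 3.07 did not pass (adjusted p = 0.336). Mmp13, in contrast, was 4.06 at D4 and 4.01 at D7. The number of genes that passed ran from 1 to 35 when 1 array was left out, with 35 without leading edge D4 replicate 2 and 1 in 7 of the fits.

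**Figure D4:**
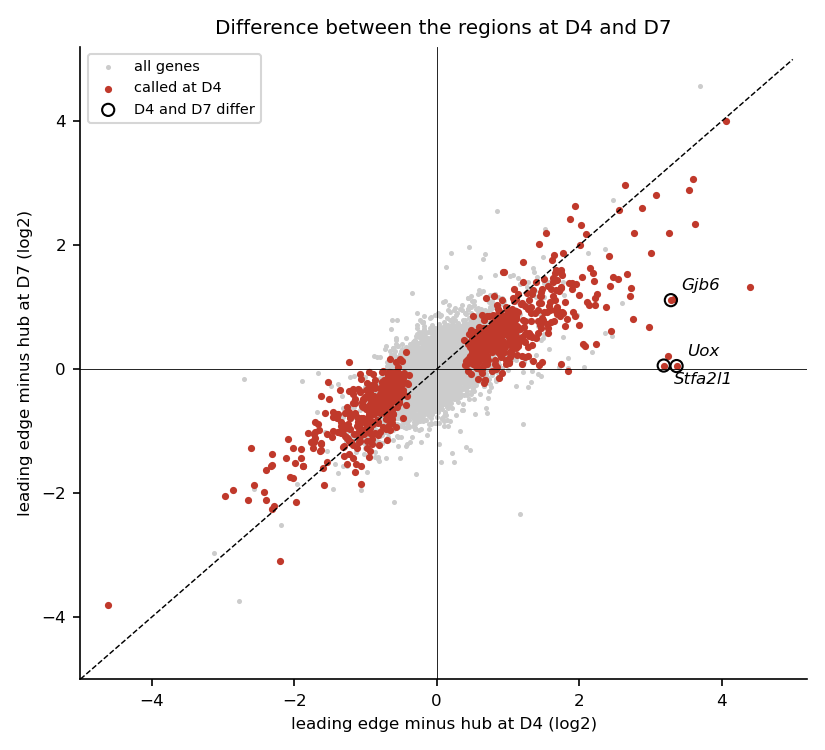
Difference between the LE and the hub at D4 (x axis) against that at D7 (y axis), both log2, for all genes (grey) and for those called at D4 (red), with the genes whose difference changed between days circled and the line of equal difference dashed. Most red points have the same sign on both axes, and Uox, Stfa2l1 and Gjb6 lie far below the line.

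Control skin at D4 gives the place of each region. In the 446 genes higher in the LE, the hub mean lay between control and the LE for 328 and control lay between the hub and the LE for 118. Their median level relative to control was 1.20 for LE arrays and 0.22 for hub arrays. Of these genes limma called 413 above control in the LE and 17 above control in the hub. In the 367 lower genes, the hub lay between the LE and control for 281, control lay between the regions for 83 and below the LE for 3, and the medians relative to control were -1.08 for LE arrays and -0.20 for hub arrays. Of these limma called 338 below control in the LE, and in the hub 5 below and 1 above. Both regions share these control arrays, and the hub arrays also entered the choice of these genes, so these counts describe the called genes and were not tested. The chemokine Ccl8 was an exception in the hub, at 6.75 and 6.04 there, 5.16 and 5.16 in the LE and 5.54 and 4.87 in control (LE minus hub -1.24, SE 0.26, adjusted p = 0.0242, lost in 3 of the 12 fits), and the hub was not called against control (1.19, adjusted p = 0.101).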

How the data were processed

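For each sample 5 mice were pooled, 300 basal cells were sorted, and their amplified cDNA was hybridized to a 1-colour Affymetrix array. The deposited values are log2 intensities per probe set, made by the authors with RMA (background correction, quantile normalization and summary of the probes of a set), with no version given in the sources used here. The number of arrays limits the precision, as intensities carry no read depth. Medians were 5.40 to 5.47 on the arrays of D4 and 4.25 to 4.29 on those of D7, so only within-day differences were compared between days, and levels were never set against each other between genes. Nonspecific probe sets had medians of 4.02 to 4.19 at D4 and 2.97 to 3.06 at D7. A difference from a dim level may thus be compressed to an unlike degree on the 2 days, which was not tested.

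Of 45141 probe sets, 28898 were paired with 1 gene by the platform annotation, 551 with several and 15588 with none, the rest being controls, and a gene was read from its probe set of highest mean intensity on the 12 arrays (17097 genes, of which 7180 had more than 1 probe set). limma 3.58.1 in R 4.3.3 was fitted on the 6 groups of 2 arrays (6 residual degrees of freedom) with contrasts for LE minus hub at D4, at D7 and their difference, and p-values were adjusted over all genes by the Benjamini-Hochberg method. The study's fold rule was applied as well. On simulated data for the LE against the hub at D4 (17097 genes), the fit recovered 81% of 100 genes changed 2-fold and 98% of 100 changed 4-fold, and 14 of 193 calls were unchanged genes. The simulated noise was normal, independent between arrays and of equal spread in every group. On the real arrays limma estimated weights of 0.765 for the LE and 1.264 for the hub at D4, so these shares may not hold there. Named were the 15 largest called differences in each direction that passed the fold rule, up to 4 called members of each of 42 lists of function and any called member of a list that went against most of its called members, the genes the study names for the LE, the sort antigens, the first 2 markers of each of 15 other cell types and genes called between days. The comparison and the gene lists were chosen with earlier results of these data known. Alternatives changed the scaling, the probe set rule, a filter on dim genes, weights, prior, the arrays fitted and the replicate block. Promoter sequences were read from RefSeq (GRCm38.p6).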

Additional observations from a re-analysis of the deposited data

Results flagged for a closer look

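For 3 genes the difference between the LE and the hub was larger at D4 than at D7 by limma's test of that change, Uox by 3.318, Stfa2l1 by 3.129 and Gjb6 by 2.174 on the log2 scale. Smad3 (0.892, adjusted p = 0.723 in limma) and Gins2 (-0.71, adjusted p = 0.637) moved in opposite directions on the arrays of the 2 days, but the change itself did not pass the test. Among the 16139 probe sets not paired with a single gene, which no comparison above uses, 210 were called above and 244 below the hub in the LE at D4, with largest differences of 3.195 and -3.028.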

How the results depend on the processing

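The counts of genes called between the LE and the hub at D4 depended on the size tested for and on which arrays were fitted. From 446 higher and 367 lower, the fit on the 6 arrays of D4 called 154 and 109 and the fit on the 4 arrays compared called 121 and 75, where fewer residual degrees of freedom remain. A test for a difference of more than 2-fold (limma's treat) called 13 and 5. Without 1 array the counts ran from 161 to 482 higher and from 161 to 425 lower over 12 fits, where a lone array was assumed to vary like the other groups. The other scalings, the mean of all probe sets, each probe set by itself, leaving out dim genes, array weights and a trended robust prior gave 415 to 533 higher and 341 to 449 lower. Replicate numbers were not taken as pairing the samples in the main limma fit, and whether same-numbered arrays share mice is not known. Deviations of same-numbered D4 arrays correlated at 0.17 to 0.245 and those of D7 at 0.002 to 0.067. With a replicate block limma called 540 and 474, and 2 genes between days, and it also called Mmp9, Timp3, Plau and Itga5 (adjusted p = 0.0271, 0.0101, 0.0035 and 0.0244) and, of the 28 genes of the study, 22 higher and 1 lower. A replicate block in the D4 arrays alone, an alternative chosen after seeing the data, called 228 and 192. By the fold rule, 185 higher and 120 lower became 131 and 70 when all 4 pairs of arrays had to pass, 153 and 82 with crossed numbers and 297 and 189 by group means, and from 303 to 366 and from 227 to 264 without 1 of the 4 arrays, which leaves a single fold. The 3 genes that differed between days became 1 to 35 without 1 array. For single named genes and list counts 5914 values kept their call or count, 657 lost a call, 28 gained one, 432 counts moved by more than 1.5 times, and no named gene that was called changed sign. With the mean of all probe sets, 2 of the 367 lower genes had the opposite sign, and C5ar1, which was not called, ran from -0.19 to 0.05. The cause of these changes was not tested.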
